A study of Bos taurus with 48 samples.

Results

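MUC1 and 5 further genes of cell-surface adhesion, GLYCAM1, CD44, ICAM1, VCAM1 and ALCAM, were followed in bovine endometrium on day 17 of the reproductive cycle. The members were every array probe whose gene name, or the gene symbol closing its description, equalled one of these 6 names. This gave 8 of the 21475 probes of the array and 6 of the 18042 genes with a symbol in the probe descriptions. All 44 samples came from 22 synchronised lactating Holstein Friesian dairy cows, each giving 1 caruncular and 1 intercaruncular sample. The 12 pregnant cows had received a grade 1 embryo on day 7, whereas the 10 cyclic cows had not. All were slaughtered on day 17. Among the pregnant cows, 7 carried an embryo labelled large (over 20 cm and over 75 mg) and 5 an embryo labelled small (under 20 cm and under 40 mg), and the titles called 6 cows fertile and 6 sub-fertile. The basis of the fertility classes is not given in the sources used here. RNA of each sample in Cy5 was hybridised against a Cy3 pool of all 44 samples without dye swap, and 4 caruncular samples were hybridised again, giving 48 arrays.

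Caruncles are the aglandular knobs of the ruminant uterus at which the placentome later forms, and the intercaruncular areas between them carry the glands. MUC1 is a large transmembrane mucin of epithelial cells, whose glycosylated ectodomain extends from the apical surface and can hinder contact between the conceptus and the uterine epithelium. GLYCAM1 is a secreted mucin-like selectin ligand, and CD44 is the hyaluronan receptor. ICAM1, VCAM1 and ALCAM are immunoglobulin superfamily adhesion molecules that bind leukocyte integrins of the LFA-1 and Mac-1 type, the integrin VLA-4 and the T cell receptor CD6, respectively. In ruminants attachment is superficial and follows a long pre-attachment phase during which the trophoblast elongates.

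The MUC1 probe, A_73_115084, which was designed on a RefSeq transcript of the gene, is shown because the tissue difference below rests on this oligonucleotide alone. It is 60 bases long, and its last 30 bases, positions 31 to 60, are printed 5′ to 3′ as the study listed the probe, with the hexamer AATAAA in capitals. This hexamer, the common polyadenylation signal, lies at positions 35 to 40 of the probe.
MUC1: gctgAATAAAatgcagacctcctccacgcc

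Values are log2 ratios of a sample to the pool after subtraction of the array median, so a value of 0 means the level of the pool. A level can be compared between samples but not between genes. A difference was called at a Benjamini-Hochberg adjusted p below 0.05 over all 14690 tested probes in limma's moderated test, and, for pregnancy and tissue, at 1.5-fold or more. In whole tissue, fewer cells of a type and less RNA per cell cannot be told apart.

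Only 4 of the 6 members could be tested. GLYCAM1 and CD44 were measured by 1 probe each and were close to background in nearly all samples. The GLYCAM1 probe was well above background on 4 of 48 arrays, in 0 of 10 cyclic and 0 of 12 pregnant caruncular samples and in 1 of 10 and 2 of 12 intercaruncular samples. The CD44 probe reached that mark on 5 of 48 arrays, in 0 of 10 and 2 of 12 caruncular samples and in 1 of 10 and 2 of 12 intercaruncular samples. No fold change is given for either gene, since on most arrays their probes were not well above background. MUC1 and VCAM1 were well above background on all 48 arrays.

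ICAM1 and ALCAM each had 2 probes. The brighter ICAM1 probe, A_73_101947, carries the gene name ICAM1 but its description names PTBP1, a splicing factor. It correlated with the PTBP1 probe of the array at r = 0.958 across the 44 samples, and at r = 0.635 with the other ICAM1 probe, A_73_117589, whose name and description agree. A_73_117589 itself correlated with the PTBP1 probe at r = 0.713 (n = 43), so it was not free of that pattern. The rule for counting a member once took the brighter probe. Counts are therefore given by that rule first, and the probe described as ICAM1 is described beside them, a choice made after its values were seen. That probe had no value in 1 intercaruncular cyclic sample, Intercaruncular_Non-Pregnant_9778, whose spots were flagged as outliers, so the fits of ICAM1 that use this sample drop it. The brighter ALCAM probe, A_73_106668, passed the filter in 42 samples and was tested. The dimmer one, A_73_103730, passed in 7 samples and was not.

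The arrays showed between 68.8% and 84.0% of spots well above background. Cows are named here by the part of the label that their samples share. The intercaruncular sample of the cow Pregnant_9790 stood apart, with a median correlation of -0.03 with the other samples of its group, and those of Non-Pregnant_9786 were also low for their groups (0.34 intercaruncular, 0.30 caruncular). Repeated arrays of a sample differed by at most 0.19 on the log2 scale for the tested member probes. Slide and tissue were almost wholly nested: only Pregnant_9790 and Non-Pregnant_9786 had both tissues on 1 slide.

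MUC1 was lower in caruncular than in intercaruncular endometrium in every cow. In cyclic cows its log2 ratio ran from -1.84 through a median of -0.87 to 0.59 in caruncular samples, and from -0.44 through -0.06 to 0.68 in intercaruncular samples. In pregnant cows it ran from -2.89 through -1.51 to -0.61 in caruncular samples, and from -0.84 through 0.00 to 0.53 in intercaruncular samples. The groups overlapped, but 8 of 10 cyclic and 10 of 12 pregnant caruncular samples lay below all intercaruncular samples of their state. The difference was -0.82 (SE 0.24, adjusted p = 0.00713) in cyclic cows and -1.47 (SE 0.22, adjusted p = 9.91e-07) in pregnant cows, which is 1.76-fold and 2.77-fold. Within cows, the caruncular value was lower in 10 of 10 cyclic cows, with differences of -1.49 to -0.10, and in 12 of 12 pregnant cows, with differences of -2.94 to -0.19.

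**Figure D1:**
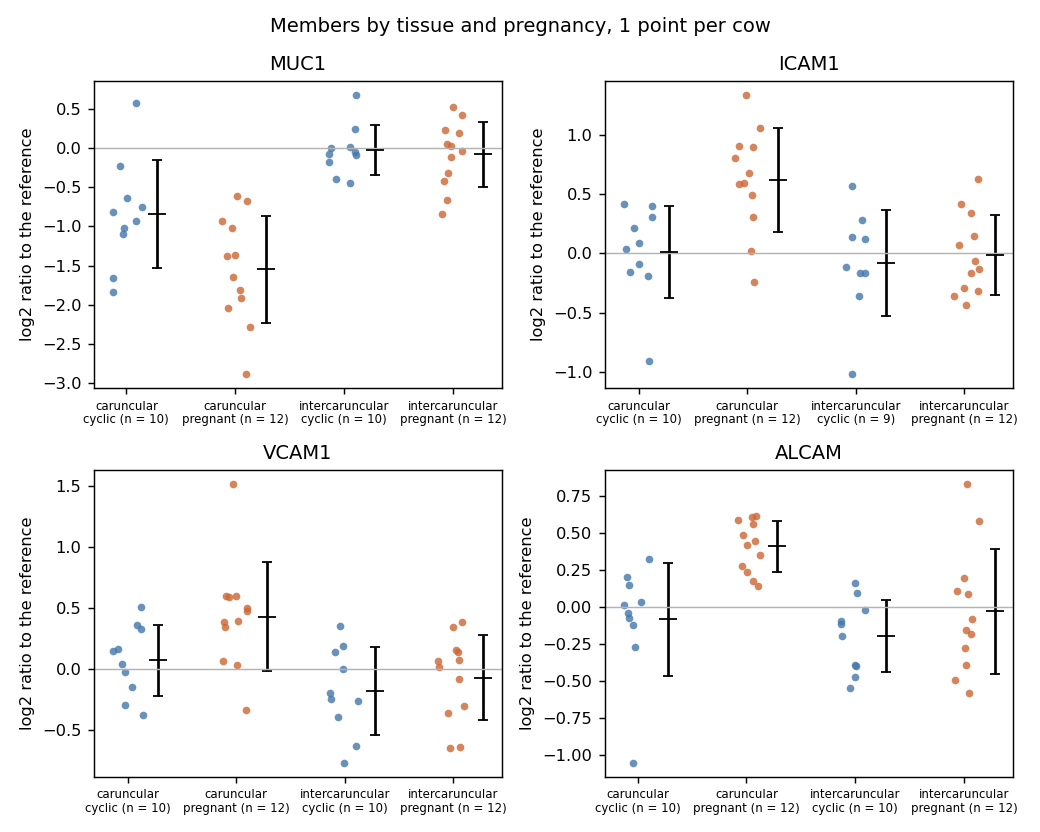
Log2 ratio to the pooled reference (y axis) of MUC1, ICAM1 (probe described as ICAM1), VCAM1 and ALCAM in caruncular and intercaruncular endometrium of cyclic and pregnant cows, 1 point per cow, with mean and SD beside the points. MUC1 lies lowest in caruncular samples of pregnant cows (-1.55 ± 0.69, n = 12), where ICAM1 (0.62 ± 0.44) and ALCAM (0.41 ± 0.17) lie highest.

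By the counting rule, MUC1 was 1 of 4 testable members called between tissues in cyclic cows and 1 of 4 in pregnant cows, against 12.2% and 17% of all tested probes. By the probe described as ICAM1 the counts were 1 and 2. That probe did not differ between tissues in cyclic cows by the test (0.09, SE 0.18, adjusted p = 0.732), with values from -0.91 to 0.41 in caruncular and -1.02 to 0.57 in intercaruncular samples. In pregnant cows it was higher in caruncular tissue, by 0.63 (SE 0.16, adjusted p = 0.00138, 1.55-fold), and the caruncular value was the higher in 12 of 12 cows, by 0.12 to 1.19. This call was lost without Pregnant_932 (0.58) and with slide as a random block (0.56, adjusted p = 0.0402), both under 1.5-fold. The brighter probe differed by 0.31 in cyclic (SE 0.12, adjusted p = 0.0356) and 0.30 in pregnant cows (SE 0.11, adjusted p = 0.0192), below 1.5-fold in both.

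VCAM1 and ALCAM differed between tissues in pregnant cows by less than the fold limit. VCAM1 ran from -0.34 through 0.43 to 1.52 in caruncular and from -0.65 through 0.04 to 0.39 in intercaruncular samples of pregnant cows, a difference of 0.50 (SE 0.15, adjusted p = 0.00489, 1.41-fold). The caruncular sample was the higher in 12 of 12 pregnant cows and in 8 of 10 cyclic cows. ALCAM ran from 0.14 through 0.43 to 0.61 and from -0.58 through -0.12 to 0.83, a difference of 0.44 (SE 0.13, adjusted p = 0.00485, 1.36-fold), higher in the caruncular sample of 10 of 12 cows. In cyclic cows the differences were 0.25 for VCAM1 (adjusted p = 0.226) and 0.11 for ALCAM (adjusted p = 0.557).

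**Figure D2:**
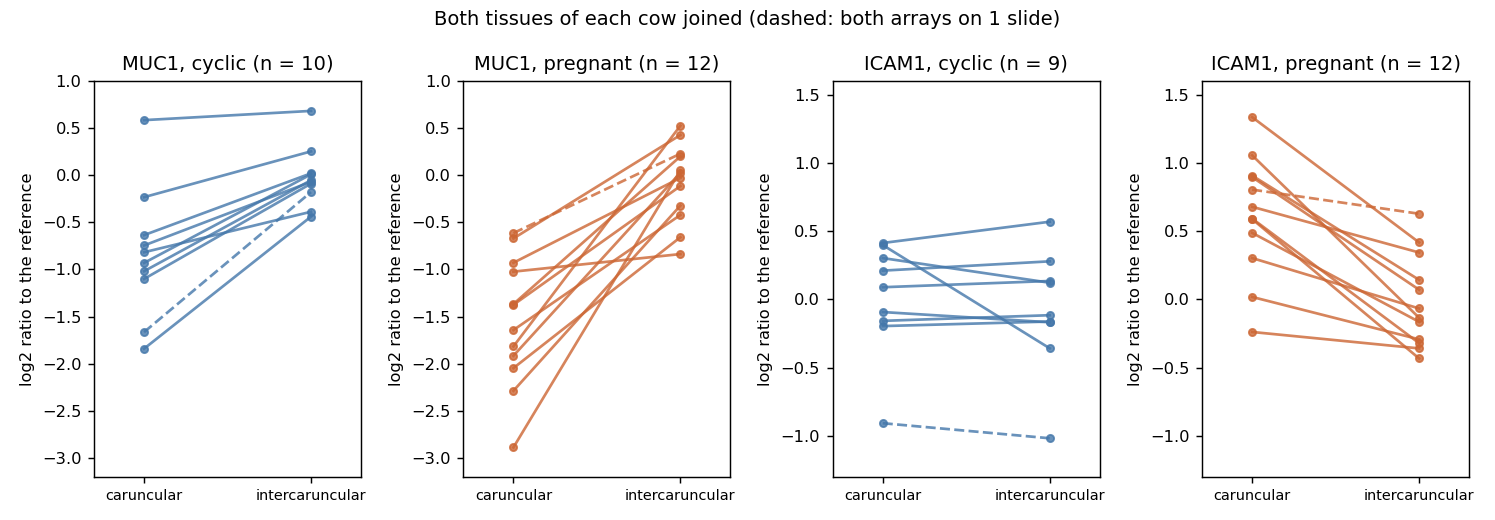
Log2 ratio of MUC1 and of ICAM1 (probe described as ICAM1) in both tissues of each cow, joined by a line, with cyclic and pregnant cows in separate panels and dashed lines for the cows with both arrays on 1 slide. MUC1 is lower in the caruncular sample of all 22 cows, and ICAM1 is higher there in 12 of 12 pregnant but 4 of 9 cyclic cows.

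For all cows but Pregnant_9790 and Non-Pregnant_9786, tissue and slide cannot be told apart. On the 2 slides that held both tissues of a cow, MUC1 differed by -0.84 in Pregnant_9790 and by -1.49 in Non-Pregnant_9786. ICAM1 differed there by 0.18 and 0.11, VCAM1 by 0.32 and 0.25, and ALCAM by -0.40 and -0.94, so ALCAM was lower in the caruncular sample of both of these cows.

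Pregnancy was compared within each tissue to ask which genes differ between pregnant and cyclic cows. Most slides held cows of 1 state only, so for most cows pregnancy and slide cannot be told apart. By the counting rule 0 of 4 testable members were called in caruncular endometrium, where 9.99% of tested probes were called, and 3 of the 4 had an unadjusted p below 0.05 in limma, as had 5751 of the 14690 probes. By the probe described as ICAM1 1 of 4 was called, ICAM1 itself. It ran from -0.91 through 0.06 to 0.41 in cyclic and from -0.24 through 0.64 to 1.34 in pregnant cows, and 9 of 12 pregnant samples lay above all cyclic samples. The difference was 0.61 (SE 0.17, adjusted p = 0.0116), which is 1.53-fold, just above the limit. The brighter probe differed by 0.11 (SE 0.11, adjusted p = 0.449). Without any one of Non-Pregnant_9786, Pregnant_932, Pregnant_1943, Pregnant_3956 and Pregnant_9921 the difference of the probe described as ICAM1 fell under 1.5-fold, to between 0.51 and 0.58. The call was also lost with slide as a random block (0.58, adjusted p = 0.0604) and scan date as a fixed block (0.58, adjusted p = 0.0132, under 1.5-fold). With slide as a fixed block the difference was 0.02, a value that rests on 1 slide with 3 pregnant cows and 1 cyclic cow.

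ALCAM, the ligand of CD6 on T cells, had the smallest p-value of the members in caruncular tissue. Its values ran from -1.05 through -0.02 to 0.32 in cyclic and from 0.14 through 0.43 to 0.61 in pregnant cows. All 12 pregnant samples lay above the cyclic mean and 8 above every cyclic sample. The difference of 0.49 (SE 0.12, adjusted p = 0.00422) passed the p threshold but, at 1.41-fold, not the fold limit. The dimmer ALCAM probe, fitted without the filter, differed by 0.15 (adjusted p = 0.285) in caruncular samples. In intercaruncular samples it differed by 0.35 (adjusted p = 0.195).

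MUC1 missed the p threshold in caruncular tissue, with a difference of -0.71 (SE 0.28, adjusted p = 0.062, 1.63-fold) and the ranges given above. Of the 12 pregnant samples, 10 lay below the cyclic mean and 4 below every cyclic sample. It passed when any one of Non-Pregnant_9786, Non-Pregnant_9813, Pregnant_3803 and Pregnant_9790 was left out, with differences between -0.82 and -0.79. The study, with its own probe filter and a t-test, described MUC1 as down-regulated with pregnancy and named no tissue there. VCAM1 ran from -0.38 through 0.09 to 0.51 in cyclic and from -0.34 through 0.43 to 1.52 in pregnant caruncular samples, and its difference of 0.36 (SE 0.16, adjusted p = 0.0938) did not pass.

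**Figure D3:**
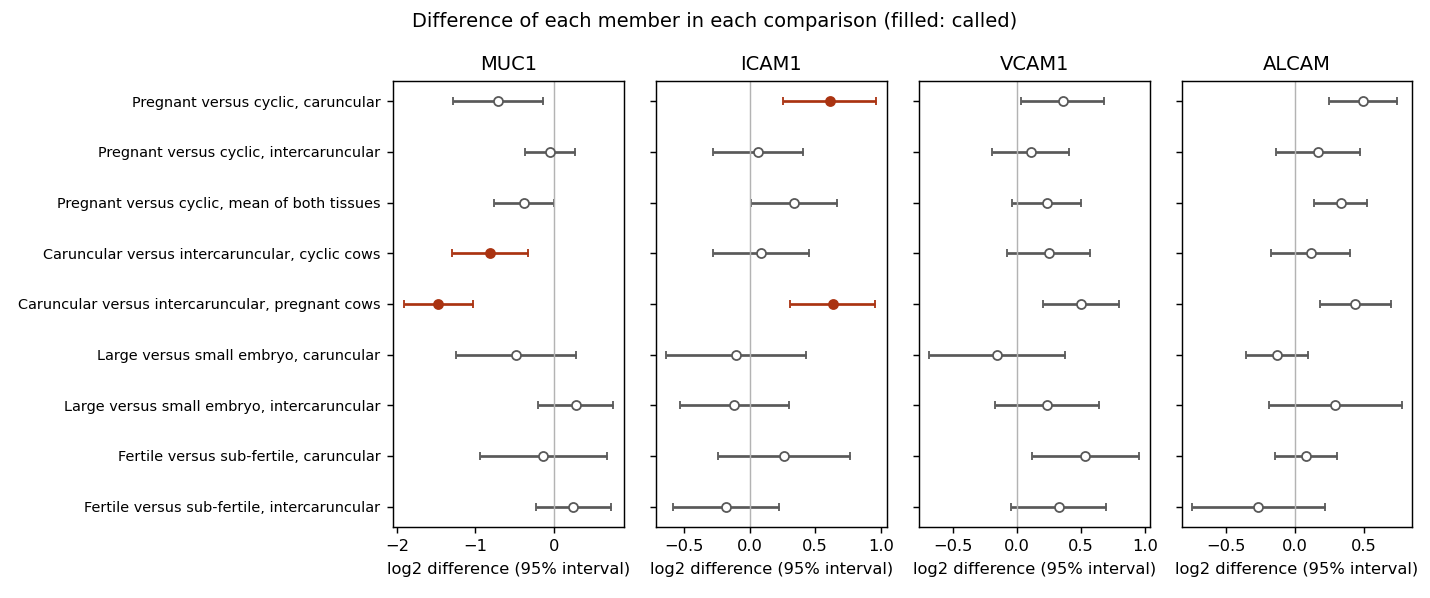
Difference of each testable member (log2, x axis, with 95% interval) in the 9 comparisons of 2 groups (y axis), filled where called, with ICAM1 by the probe described as ICAM1. MUC1 is called between tissues in cyclic (-0.82) and pregnant cows (-1.47), and ICAM1 between tissues in pregnant cows (0.63) and with pregnancy in caruncular tissue (0.61).

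In intercaruncular endometrium 0 of 4 members were called by either ICAM1 probe, where 7.24% of tested probes were called, and 0 of 4 had an unadjusted p below 0.05 in limma, against 5011 of the 14690 probes. The differences were -0.05 for MUC1 (95% interval -0.37 to 0.27), 0.07 for the probe described as ICAM1 (-0.28 to 0.41), 0.11 for VCAM1 (-0.19 to 0.41) and 0.17 for ALCAM (-0.13 to 0.47). Whether the pregnancy effect differed between tissues was tested as an interaction, in which limma called 0.0204% of probes and 0 of 4 members. By the counting rule 0 of 4 had an unadjusted p below 0.05 in limma, against 1083 of the 14690 probes. For the probe described as ICAM1 the effect was larger in caruncular tissue by 0.54 (SE 0.24, unadjusted p = 0.0305, adjusted p = 0.613), and for MUC1 it differed by -0.66 (SE 0.33, unadjusted p = 0.0503, adjusted p = 0.68). Both tissues came from the same cows. With the cow as a fixed or random block the interaction called 150 and 434 probes in place of 3, and still 0 of 4 members. The adjusted p was then 0.0542 and 0.053 for the probe described as ICAM1, and 0.169 and 0.124 for MUC1. Averaged over both tissues of a cow, limma called 0 of 4 members, where 8.18% of tested probes were called, and 1 of 4, ALCAM, had an unadjusted p below 0.05, as had 6071 of the 14690 probes. It differed by 0.33 (SE 0.09, adjusted p = 0.0111, 1.26-fold), higher than the cyclic mean in 11 of 12 pregnant cows.

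Slides that held both states had 1 cyclic sample each, against 2 or 3 pregnant samples, so their differences have no replicate check in cyclic cows. On 1 caruncular slide, pregnant less cyclic was -0.15 for MUC1, 0.02 for the probe described as ICAM1, -0.27 for VCAM1 and 0.44 for ALCAM, and on another it was -0.41, 0.34, 0.16 and 0.69. On the intercaruncular slide with both states the differences were -0.27, -0.24, -0.78 and 0.55. The part of the slide in these results was not tested further than by the alternative fits given in the closing section.

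Some markers of the cell types in the tissue differed in the same comparisons. All 11 epithelial markers were tested. Between tissues in pregnant cows, 5 were lower in caruncular samples, KRT18 (-1.38), KRT7 (-1.57), EPCAM (-0.83), KRT19 (-0.73) and KRT8 (-0.66), and 1 was higher, CDH1 (0.83). In cyclic cows KRT18 alone was lower (-0.78). The mean log2 ratio of the 11 markers ran from -0.94 to 0.05 in cyclic and from -1.0 to 0.16 in pregnant caruncular samples, and from -0.53 to 0.04 and from -0.32 to 0.45 in intercaruncular samples. Of 3 gland markers 2 were tested. FOXA2, the transcription factor of uterine glands, was lower in caruncular tissue, with differences of -1.56 in cyclic and -2.65 in pregnant cows. SERPINA14, the uterine milk protein, was not called between tissues (-0.15 and 0.29), and PAEP was above background in 0 of 44 samples. Of 8 stromal markers, 3 in cyclic and 6 in pregnant cows were higher in caruncular samples, among them LUM by 0.98 and 1.26. Among all tested probes, 12.2% in cyclic and 17% in pregnant cows were called between tissues.

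With pregnancy, the epithelial markers did not move one way in caruncular tissue, where CDH1 and CLDN4 rose (1.02 and 0.95) and KRT7, KRT18 and KRT19 fell (-2.07, -0.86 and -0.77). Of 7 pan-leukocyte markers, CD53 alone rose, by 1.71 in caruncular and 1.24 in intercaruncular tissue, and the mean of the 7 ran from -0.51 to 0.05 in cyclic and from -0.05 to 0.60 in pregnant caruncular samples. The T lymphocyte list had 7 of 10 markers tested, and limma called 0 of 7 with pregnancy in either tissue. Median differences of that list were 0.07 in caruncular and 0.15 in intercaruncular tissue. Of 8 macrophage markers, CSF1R, MRC1, FCER1G and AIF1 rose in caruncular tissue (by 0.65 to 1.19), CSF1R and AIF1 in intercaruncular tissue. Of 8 endothelial markers, TEK, TIE1 and ROBO4 fell in caruncular tissue and TEK and TIE1 in intercaruncular tissue. Of 7 smooth muscle markers, 5 fell in each tissue. Among all tested probes, 9.99% in caruncular and 7.24% in intercaruncular tissue were called with pregnancy. The trophoblast genes IFNT2, PAG11 and PRP1 were above background in 0 of 44 samples, and PAG2, PAG8, TKDP1, TKDP4 and CSH2 in 2 or 3. The ninth gene of that list on the array, PAG1, was above background in 44 of 44 samples, but its description names a phosphoprotein of glycosphingolipid microdomains and not a trophoblast gene. It was not called with pregnancy (0.16 in caruncular and -0.33 in intercaruncular samples) or by embryo size (-0.10 and 0.75). The part of these cell types in the differences of the members was not tested.

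Across the 22 caruncular samples, MUC1 followed the epithelial marker level of the same sample. Within pregnancy state, Pearson's r was 0.766 (permutation p = 9e-05, adjusted p = 0.0018) and Spearman's rho 0.761 (permutation p = 0.00014, adjusted p = 0.0014). Without the 2 samples farthest from the median r was 0.734, and within the larger scan batches it was 0.752 (n = 20). In intercaruncular samples r was 0.18 (permutation p = 0.453), and whether the relations differ between tissues was not tested. ICAM1, by the probe described as ICAM1, and VCAM1 followed each other in caruncular samples (r = 0.720, permutation p = 0.00022, adjusted p = 0.0022, and rho = 0.798, permutation p = 5e-05, adjusted p = 0.001), with r = 0.589 without the 2 farthest samples and 0.71 within the larger scan batches. In intercaruncular samples r was 0.312 (permutation p = 0.187). ALCAM and the epithelial level gave r = 0.595 (permutation p = 0.00251, adjusted p = 0.0167) and rho = 0.586 (permutation p = 0.00542, adjusted p = 0.0361) in caruncular samples, with r = 0.505 without the 2 farthest samples and 0.538 within the larger scan batches. These were 3 of 20 relations computed, 10 in each tissue, all two-sided and chosen after the data were seen. The epithelial list was taken up after correlations of 5 member probes with 10 marker lists had been looked at, and the adjustment over 20 does not cover that choice. Other lists gave similar values there, over both tissues and within groups. MUC1 had r = 0.618 with the epithelial and 0.558 with the gland list. With the smooth muscle list, r was 0.595 for the probe described as ICAM1 and 0.446 for VCAM1.

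**Figure D4:**
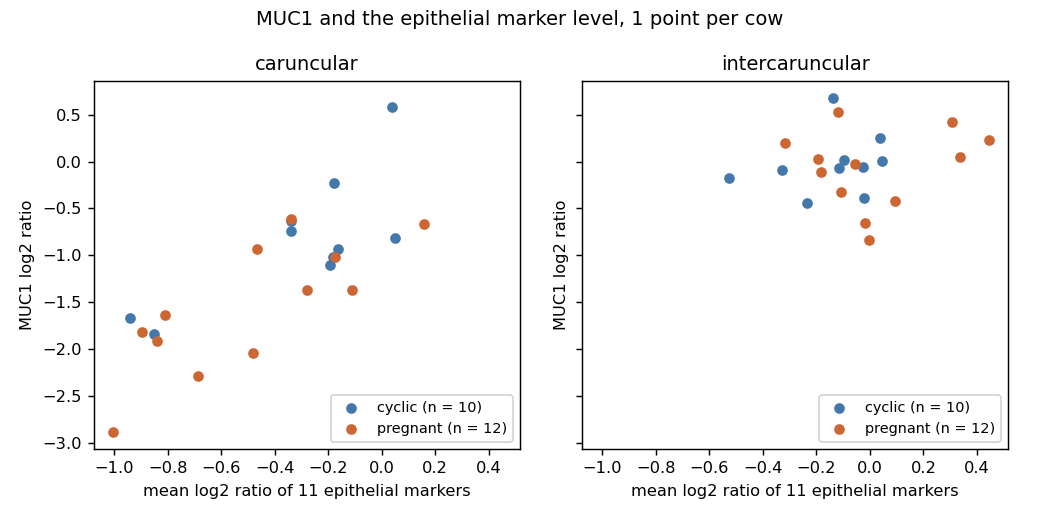
MUC1 log2 ratio (y axis) against the mean log2 ratio of 11 epithelial markers (x axis) in caruncular and intercaruncular samples, 1 point per cow, coloured by pregnancy state. The points rise together in caruncular samples (r = 0.766 within state) and spread without a clear slope in intercaruncular samples (r = 0.18).

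The genes most like each member, by Pearson's r of deviations from the 4 group means over 43 or 44 samples that share arrays, are given as a description. For MUC1 they were CYB561 (r = 0.761), NRTN (0.734) and PRP2 (0.730). For the probe described as ICAM1 they were TRPM4 (0.772), FLT3LG (0.768) and GATA6 (0.752), for VCAM1 RBM20 (0.763), RNF19B (0.707) and IFNAR2 (0.692), and for ALCAM SLTM (0.765), LOC618957 (0.724) and LOC534130 (0.719).

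Embryo size gave no called member. In caruncular tissue 0% of tested probes were called. There 0 of 4 members had an unadjusted p below 0.05 in limma, against 1014 of the 14690 probes. MUC1 ran from -2.89 through -1.92 to -0.61 with a large embryo and from -1.64 through -1.37 to -0.93 with a small embryo, and the small-embryo values lay within the range of the others. The difference, large less small, was -0.48 (95% interval -1.25 to 0.29) for MUC1, -0.10 (-0.63 to 0.43) for the probe described as ICAM1, -0.15 (-0.68 to 0.38) for VCAM1 and -0.13 (-0.35 to 0.10) for ALCAM. In intercaruncular tissue limma called 3.69% of tested probes and 0 of 4 members. At an unadjusted p below 0.05 were 0 of 4 members, against 3169 of the 14690 probes. The differences, in the same order of genes, were 0.28 (-0.20 to 0.76), -0.12 (-0.53 to 0.30), 0.23 (-0.17 to 0.64) and 0.29 (-0.19 to 0.78). All of these intervals reach past 1.5-fold except those of ALCAM in caruncular and of ICAM1 in intercaruncular tissue.

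Fertility class gave no called member either, with 0% of probes called by limma in caruncular and 0.0477% in intercaruncular tissue. At an unadjusted p below 0.05 in limma were 1 of 4 members in caruncular and 0 of 4 in intercaruncular tissue. Among all 14690 probes, 2000 had such a p in intercaruncular tissue. VCAM1 had the smallest unadjusted p of the members. In caruncular tissue its values ran from 0.39 through 0.59 to 1.52 in the 6 fertile cows and from -0.34 through 0.21 to 0.47 in the 6 sub-fertile cows, and 5 of 6 fertile values lay above all sub-fertile values. The difference was 0.54 (SE 0.19, unadjusted p = 0.0165, adjusted p = 0.30), and 2024 of the 14690 probes had an unadjusted p below 0.05 in this comparison. In intercaruncular tissue it was 0.33 (SE 0.17, adjusted p = 0.429). The other differences, fertile less sub-fertile, were -0.13, 0.26 and 0.08 in caruncular and 0.25, -0.18 and -0.27 in intercaruncular tissue for MUC1, the probe described as ICAM1 and ALCAM. Both classes crossed embryo size, with 3 large and 3 small embryos in fertile and 4 large and 2 small in sub-fertile cows. Apart from a repeat array, only 1 slide per tissue held cows of both classes. For cows on the other slides, fertility class and slide cannot be told apart.

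**Figure D5:**
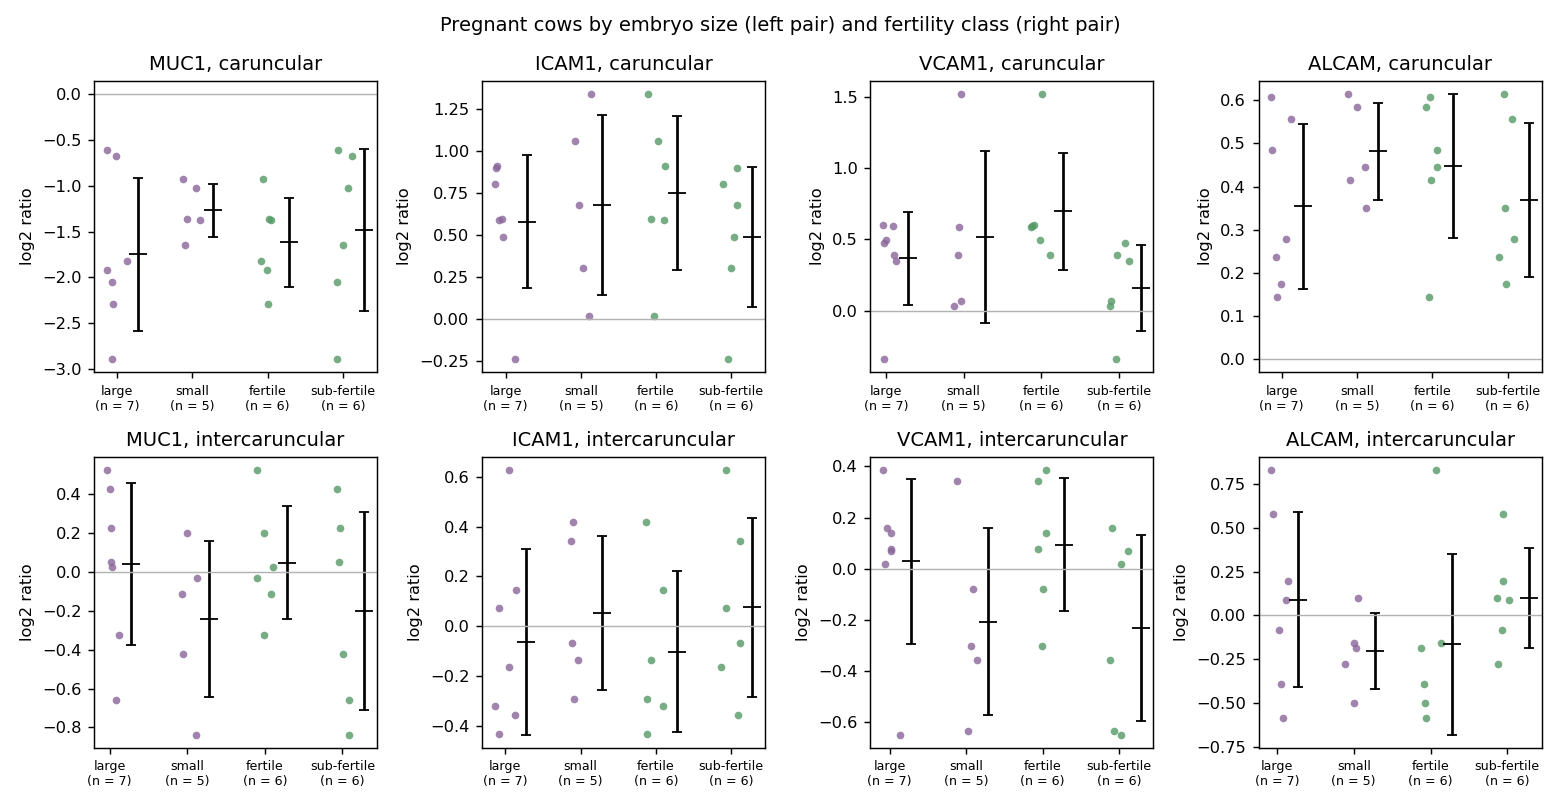
Log2 ratio (y axis) of the 4 testable members in pregnant cows by embryo size and by fertility class, in caruncular (top) and intercaruncular (bottom) endometrium, 1 point per cow with mean and SD, and ICAM1 by the probe described as ICAM1. The groups overlap in all panels, and the widest gap by fertility class is that of VCAM1 in caruncular tissue (0.70 ± 0.41 against 0.16 ± 0.30).

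Genes around the members are given by lists, each gene by 1 probe, beside the all-probe median difference of -0.04 in caruncular and -0.01 in intercaruncular tissue. Of 21 other mucins and sialomucins 5 were tested, and EMCN, the endothelial sialomucin, alone fell with pregnancy. Its difference was -0.67 (SE 0.14, adjusted p = 0.00165) in caruncular tissue. In intercaruncular tissue it was -0.61 (SE 0.14, adjusted p = 0.00461). The list medians were -0.25 and -0.36. Of 31 genes of mucin-type O-glycosylation, the enzymes that build the sugar chains of MUC1, 21 were tested, with medians of -0.06 and -0.01. GALNT18 fell in each tissue (-0.66, SE 0.12, and -0.59, SE 0.16), and ST6GALNAC3, a sialyltransferase, fell in intercaruncular tissue (-0.88, SE 0.17). Its caruncular difference was -0.17 (SE 0.17, adjusted p = 0.472), and the interaction called 0 of 21 genes of the list in limma. Between tissues, GALNT1, GALNT7 and GCNT1 were higher in caruncular samples of both states, by 0.62 to 0.97, while GALNT6 and GCNT3 were lower there in pregnant cows, with differences of -1.07 (SE 0.31) and -1.48 (SE 0.38).

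Among sheddases, metalloproteases that can release the MUC1, CD44, VCAM1 and ALCAM ectodomains, 5 of 7 were tested. With pregnancy limma called 0 of 5 in either tissue, with 2 at an unadjusted p below 0.05 in each, a share near that of all probes in the caruncular (5751 of 14690) and intercaruncular comparison (5011 of 14690). The medians were 0.08 and 0.16. ADAM10, ADAM17 and MMP14 were higher in caruncular tissue, by 0.83, 0.83 and 1.10 in cyclic cows and by 0.84, 0.87 and 1.02 in pregnant cows (SE 0.18 to 0.26, highest adjusted p = 0.00579).

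Partners of GLYCAM1 and CD44 could be read although those members could not. Of 9 selectins and makers of selectin ligands 6 were tested. With pregnancy 2 rose in caruncular tissue, CHST2 among them, and in intercaruncular tissue 1 rose and 1 fell. CHST2, a sulfotransferase for selectin ligands, rose by 0.85 (SE 0.24) and 0.68 (SE 0.18) in caruncular and intercaruncular tissue, and SELP, P-selectin, fell (-0.65, SE 0.16) in intercaruncular tissue. The list medians were 0.49 and -0.08. Of 18 genes of the hyaluronan and CD44 list 12 were tested, with medians of -0.18 in each tissue. SPP1, the secreted phosphoprotein that binds integrins and CD44, rose by 2.49 (SE 0.74, adjusted p = 0.0164) in caruncular samples and by 1.66 (SE 0.45, adjusted p = 0.0118) in intercaruncular samples. TNFAIP6, which links hyaluronan chains, rose by 0.89 (SE 0.26) in caruncular tissue. SPP1 was also higher in caruncular than intercaruncular samples, by 2.01 (SE 0.66) in cyclic and 2.84 (SE 0.60) in pregnant cows.

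Of 9 integrins that bind ICAM1 or VCAM1, 6 were tested. With pregnancy limma called 0 of 6 in either tissue, and the medians were 0.13 and 0.04. At an unadjusted p below 0.05 in limma were 3 in caruncular and 1 in intercaruncular tissue, against 5751 and 5011 of the 14690 probes. ITGB1, the beta chain of VLA-4, was higher in caruncular tissue by 1.14 (SE 0.18) in cyclic and 0.70 (SE 0.16) in pregnant cows. Of 35 other immunoglobulin superfamily adhesion genes 22 were tested, with medians of -0.19 and -0.06. In caruncular tissue NCAM1 and CEACAM1 rose, by 0.70 (SE 0.21) and 0.60 (SE 0.12), and PECAM1, MCAM, CADM3 and NECTIN4 fell (-1.29, -0.67, -0.69 and -0.63). In intercaruncular tissue PECAM1, MCAM and CADM3 fell (-1.52, -0.81 and -0.64). PECAM1, MCAM and EMCN are known from endothelium. Of its 8 markers, TEK and TIE1 fell in both tissues and ROBO4 in caruncular tissue, and the others were not called. Whether these differences are linked was not tested. Of 17 NF-kappaB pathway genes, among whose targets ICAM1 and VCAM1 are known, 15 were tested, with medians of 0.25 and 0.10. TNF and IL1B rose in caruncular tissue, by 0.89 (SE 0.21, adjusted p = 0.00404) and 0.79 (SE 0.28, adjusted p = 0.0432). In intercaruncular tissue limma called 0 of 15, with 4 at an unadjusted p below 0.05, against 5011 of the 14690 probes.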

How the data were processed

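Total RNA of 44 endometrial samples from 22 cows was amplified, labelled with Cy5 and hybridised with a Cy3 pool on 48 Agilent bovine arrays. Per the file headers, the authors extracted the spots with Feature Extraction 9.5.3.1, which subtracted background, fitted LOWESS between the dyes and wrote a log10 ratio of sample over pool. The deposited files also hold the processed signal intensity of each dye, used here for the filter alone, and a log2 matrix of the same arrays, deposited by the authors, used as an alternative. The sources used here name no genome build. The number of cows limits the precision.

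The log10 ratios were turned into log2, averaged over spots without outlier flags and over the repeat arrays of a sample, and reduced by the array median. Probes well above background and at 80 intensity units or more in at least 22 of 44 samples were tested, which left 14690. Differences were fitted with limma 3.58.1 in R 4.3.3 without a block and adjusted by Benjamini-Hochberg over all tested probes. Within a tissue, and for the mean of both tissues, the cow was the replicate. Tissue differences and the interaction treated the 44 samples as separate units, so their SE and p ignore the pairing within cows. The fit was tested on simulated data. Values of the 2 tissues of a cow deviated together (r of 0.11 to 0.87, median 0.61, above 0.1 in 22 of 22 cows). Why they did so was not tested, and the fits with the cow as a block are alternatives. P-values of correlations came from 100000 permutations of cows within pregnancy state.

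The named genes were the members, in each list up to 3 called genes with the largest change with pregnancy in each tissue, any gene of which a count of 5 or fewer consists, and the 3 genes most like each member. The values of 1 gene of the selectin list are not reported here. A member with several probes was counted by its brightest. The members, gene lists and tests were chosen with earlier results of these data known. Probe symbols were brought to RefSeq names of assembly ARS-UCD2.0, by name alone and without coordinates, for 16690 probes. This assignment was revised after a first pass had been seen: a probe first read as GALNT9, counted there as risen in caruncular tissue, turned out to name 2 genes and left its list, and CADM3, CADM4, IGSF5 and ZAP70 entered theirs. Giving the second ICAM1 probe throughout, leaving out the third scan batch, the within-slide values and the 20 relations were also decided after the data were seen.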

Additional observations from a re-analysis of the deposited data

Results flagged for a closer look

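Among 50 groups of 5 to 10 samples, formed by the 5 tested member probes, tissue and cyclic state, embryo size or fertility class, 8 held a sample far from the others by Dixon's test, which flags about 1 in 20 groups by chance. The groups share cows and probes, so these are not 8 separate observations.

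The cow Non-Pregnant_9786 was the lowest cyclic cow in caruncular tissue for ALCAM (-1.05, nearest other -0.27), for the probe described as ICAM1 (-0.91, nearest -0.20) and for the brighter ICAM1 probe (-0.76, nearest -0.02). Its samples also correlated poorly with their groups. Without this cow the pregnancy difference of the probe described as ICAM1 was 0.51 instead of 0.61, under the fold limit.

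The cow Pregnant_3803 was the lowest cow with a large embryo for VCAM1 in caruncular (-0.34, nearest 0.35) and in intercaruncular tissue (-0.65, nearest 0.02), and for the probe described as ICAM1 in caruncular tissue (-0.24, nearest 0.49). The cow Pregnant_932 was the highest fertile cow for VCAM1 in caruncular tissue (1.52, nearest 0.60), and leaving out 1 cow at a time gave fertility differences of 0.37 to 0.60 for that gene. The cow Pregnant_926 was the highest fertile cow for ALCAM in intercaruncular tissue (0.83, nearest -0.16).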

How the results depend on the processing

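The calls of MUC1 between tissues stood in both states under all alternatives run (highest adjusted p = 0.0319 in cyclic and 0.000826 in pregnant cows). Slide as a fixed block was not run for the tissue comparisons, where slide and tissue were almost wholly nested. With the cow as a fixed or random replicate block, the interaction called 150 and 434 probes against 3, with an adjusted p of 0.0542 and 0.053 for the probe described as ICAM1, and the block changed no call of a member. In caruncular tissue the count of members called with pregnancy went from 0 to 1 with ICAM1 read by the probe described as ICAM1, with all 44 samples in 1 fit (MUC1, adjusted p = 0.0186), and without the third scan batch, Non-Pregnant_9786 and Pregnant_9790 (MUC1 -0.88, adjusted p = 0.0203, with the probe described as ICAM1 at 0.49, adjusted p = 0.0255), and it ran from 0 to 1 when each cow was left out in turn. By the counting rule the methods' t-test gave 0, as limma did, and it also called the probe described as ICAM1 (0.61, adjusted p = 0.0163). The ICAM1 difference of that probe lost its call with slide as a random block (0.58, adjusted p = 0.0604) and scan date as a fixed block (0.58, under 1.5-fold). With slide as a fixed block it was 0.02, and that fit rests on 1 slide with 1 cyclic cow. ALCAM there ranged in adjusted p from 0.000697 to 0.521, the highest value with slide as a fixed block. Between tissues in pregnant cows the count of 1 became 2 with the probe described as ICAM1, whose call was lost with normexp and loess (0.58), slide as a random block (0.56, adjusted p = 0.0402) and without Pregnant_932 (0.58). Counts in the other 8 comparisons changed in none of their settings.

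Signs of differences that had not been called turned in a few fits. With slide as a fixed block, pregnancy was compared on 1 slide per tissue, with 3 pregnant cows and 1 cyclic cow. The pregnancy difference of VCAM1 was then -0.27 in caruncular and -0.78 in intercaruncular samples. It was -0.048 and -0.010 for the brighter ICAM1 probe, and -0.24 in intercaruncular tissue for the probe described as ICAM1. These are the within-slide values of those slides. The fertility classes, too, met on only 1 slide per tissue in this fit. By fertility class MUC1 was then 1.11 and the probe described as ICAM1 -0.046 in caruncular tissue, and VCAM1 -0.091 in intercaruncular tissue. Without the third scan batch the brighter and the dimmer ICAM1 probe were -0.00043 and -0.11 with pregnancy in intercaruncular tissue, and MUC1 was 0.039 by fertility class in caruncular tissue. The interaction of the brighter ICAM1 probe was 0.0042 with the first array alone and 0.0040 without the third batch. Leaving out a cow gave ranges across 0 of -0.11 to 0.027 (MUC1) and -0.052 to 0.15 (probe described as ICAM1) with pregnancy in intercaruncular tissue, of -0.046 to 0.062 for the interaction of the brighter ICAM1 probe, of -0.27 to 0.063 (probe described as ICAM1) and -0.27 to 0.096 (VCAM1) by embryo size in caruncular tissue, and of -0.42 to 0.039 (MUC1) by fertility class in caruncular tissue. The cause was not tested. Over single member probes, 610 alternative values kept sign and side of the threshold, 19 turned sign, 8 lost and 3 gained a call. Over all probes, slide as a fixed block left 52 and 128 calls with pregnancy against 1467 and 1064, and as a random block 653 in intercaruncular tissue. Without the third batch the interaction had 108 calls, and it had 11 without the filter, 6 with the repeat arrays and 0 with slide as a random block. Embryo size in intercaruncular tissue ran from 319 without the filter to 1882 without the third batch against 542, and fertility class from 0 to 43 against 7.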
